A study of Mus musculus with 32 samples.

Results

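Tight junctions seal the space between epithelial cells. Claudins form their strands and set which ions and molecules pass, occludin is another protein of the strands, and ZO-1 (Tjp1) is the scaffold that ties the strands to actin. In the epidermis they lie in the granular layer, below the cornified barrier. The genes described here are Cldn1, Cldn3, Cldn4, Cldn7, Cldn8, Cldn12, Cldn23, Ocln and Tjp1, chosen by symbol as 7 claudins, the occludin gene and the ZO-1 gene. They are 9 of the 55401 genes counted in each mouse, and 6 of them reached 1 cpm, a count scaled to library size, in at least 1 mouse and were tested among 15546 genes.

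RNA was sequenced from the epidermis of 32 hairless mice of the mixed SKH-1/SV129/BL6/J background, aged 10 to 14 weeks, with 1 mouse per sample. WT mice and littermates lacking the nuclear receptor PPARβ/δ (Ppard-/-, here KO, deleted in the whole body) were either sham manipulated (Control) or examined 24 h after 1 UV dose of 120 mJ/cm2. Each of the 8 groups of sex, genotype and treatment held 4 mice, so that each genotype and treatment held 8. The study set out to compare the response to UV between the sexes.

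Reads on genes ranged from 22919428 to 40653581 per mouse. The markers of keratinocytes were present in every mouse, and the summed cpm of 6 skeletal muscle markers, which belong below the skin, ranged from 3.82 to 2723 over the mice. It was over 1000 cpm in 9 mice of 6 groups. The 6 fibroblast markers reached 1982 cpm in KO UV female 54F and at most 92.2 cpm in the other mice. Ppard, counted over its whole length, was at 87.3 to 105 cpm in WT Control mice and 70.3 to 88.9 cpm in KO Control mice, and at 252 to 326 cpm in WT UV mice and 175 to 239 cpm in KO UV mice. KO UV mice were below WT UV mice by a log2 fold change of -0.42 ± 0.07 (SE, adjusted p = 0.00114, by the quasi-likelihood test of edgeR, adjusted by Benjamini-Hochberg over all tested genes and named edgeR from here on). As KO mice still had reads on the gene, its level does not by itself check the genotype label.

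The genes lie on 6 chromosomes of GRCm38 as annotated in GENCODE M21. Cldn4 (chr5:134945119-134946934, minus strand) and Cldn3 (chr5:134986214-134987472, plus strand) are neighbours with 39279 bases between them, and Cldn12 lies on the same chromosome (chr5:5489537-5514958). Cldn1 (chr16:26356642-26371841) and Cldn8 (chr16:88560828-88563183) share chromosome 16. Cldn7 is at chr11:69964779-69967885, Cldn23 at chr8:35824712-35826559, Ocln at chr13:100496507-100552718 and Tjp1 at chr7:65296165-65527781. Of the 9 genes, Cldn3 shares exon bases with another gene, 40 bases with Wbscr25 on the opposite strand, which had at most 6 reads in any mouse.

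Promoters are shown for 3 genes, because Cldn4 rose after UV while Ocln and Cldn1 were lower and varied together between mice. The sequences are those of RefSeq on GRCm38.p6, from 250 bases before to 50 bases after the start site, and 7 of the 9 genes matched an entry. Capitals mark the letters TGACTCA (an AP-1 site) and CAGGTG or its reverse complement (an E-box of the kind that Snail proteins bind), searched on both strands, and the letters do not overlap. In Cldn4 (chr5:134946885-134947184, minus strand), the AP-1 letters start 240 and 158 bases before the start site, and the E-box letters lie on both sides of it. In the first of the Ocln start sites (chr13:100552669-100552968, minus strand) the E-box letters start 7 bases after the start site, and Cldn1 (chr16:26371790-26372089, minus strand) holds neither.
Cldn4: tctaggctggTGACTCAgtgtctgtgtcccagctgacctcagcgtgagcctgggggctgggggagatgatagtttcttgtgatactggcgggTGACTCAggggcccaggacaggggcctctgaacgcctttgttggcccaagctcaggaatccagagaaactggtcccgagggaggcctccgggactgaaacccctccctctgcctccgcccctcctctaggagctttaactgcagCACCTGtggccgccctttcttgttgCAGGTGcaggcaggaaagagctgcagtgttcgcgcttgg
Ocln: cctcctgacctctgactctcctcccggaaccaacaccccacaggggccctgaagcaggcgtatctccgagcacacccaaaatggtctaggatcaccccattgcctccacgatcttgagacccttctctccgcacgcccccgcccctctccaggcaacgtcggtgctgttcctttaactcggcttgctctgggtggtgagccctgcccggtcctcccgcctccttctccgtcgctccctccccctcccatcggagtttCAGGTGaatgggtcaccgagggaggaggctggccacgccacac
Cldn1: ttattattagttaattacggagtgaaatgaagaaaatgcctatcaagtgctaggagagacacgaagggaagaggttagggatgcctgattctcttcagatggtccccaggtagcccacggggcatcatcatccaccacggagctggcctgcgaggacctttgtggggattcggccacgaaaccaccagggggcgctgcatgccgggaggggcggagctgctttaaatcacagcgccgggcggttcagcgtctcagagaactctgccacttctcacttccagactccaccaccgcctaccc
The AP-1 letters were found in 5.19% and the E-box letters in 20.3% of the 32544 promoters of this length. The 7 genes with an entry had 11 start sites, and a gene was counted if the promoter of any of its start sites held the letters. Among these genes, the AP-1 letters were found in Cldn4, and the E-box letters in Cldn3, Cldn4, Cldn7 and Ocln. The percentages are of single promoters, so counts of genes cannot be set directly against them. A grainyhead site (AACCNGTT, 2.09% of promoters), a DR1 element (0.0399%) and a TATA box (TATAAA, 13.6%) were found in none of the 7. The motifs were chosen with the values known. Letters in a window are a description and say nothing of binding in these mice.

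Per kilobase of exon, the claudins of the epidermis were mainly Cldn4 and Cldn1 at rest and after UV, with Cldn4 ahead after UV. Levels were compared between genes as cpm per kilobase of exon. The length was that of all annotated exons of a gene merged, 4841 bases for Cldn1 and 1816 for Cldn4. The order of the genes and their shares depend on these lengths. In cpm, the means of WT Control mice were 544.8 for Cldn1 and 206.0 for Cldn4. In WT Control mice Cldn4 was at 113.5 ± 14.0 and Cldn1, whose loss is lethal in newborn mice through water loss, at 112.5 ± 17.03 cpm per kb (SD, n = 8), with overlapping ranges. Tjp1 followed at 23.7 ± 3.81 and Cldn23 at 21.7 ± 5.01, again overlapping, then Ocln at 10.8 ± 2.33 and Cldn12 at 5.54 ± 0.42 cpm per kb, which did not overlap their neighbours. Cldn3, Cldn8 and Cldn7 were below 0.2 cpm per kb on average and overlapped one another. In KO Control mice the order of the first 6 was the same, with Cldn4 at 132 ± 16.2 and Cldn1 at 124 ± 18.4 cpm per kb, but Cldn23 and Ocln overlapped there. After UV, Cldn4 stood apart from Cldn1 in both genotypes, at 177 ± 25.6 against 97.8 ± 10.6 cpm per kb in WT and 189 ± 18.5 against 91.2 ± 14.5 in KO. Cldn23 then ranked below Cldn12 and Ocln, at 4.53 ± 1.21 in WT and 4.07 ± 1.49 cpm per kb in KO, overlapping with Ocln. In a whole epidermis fewer cells of a layer and less RNA per cell cannot be told apart.

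Within single mice, where the scaling of libraries cancels, the same shift was seen. The ratio of Cldn1 to Cldn4 per kb was 0.807 to 1.25 in WT Control mice (median 0.968) and 0.440 to 0.753 in WT UV mice (median 0.541). In KO mice it went from 0.825 to 1.08 in Control mice (median 0.929) to 0.362 to 0.558 after UV (median 0.504). The ranges of Control and UV mice did not overlap in either genotype. As a share of the 7 claudins per kb, Cldn4 made up 44.8% ± 3.09 in WT Control and 61.2% ± 3.76 in WT UV mice (SD, n = 8), Cldn1 44.3% ± 3.12 and 34.1% ± 3.83, Cldn23 8.58% ± 1.93 and 1.58% ± 0.42, and Cldn12 2.21% ± 0.27 and 3.04% ± 0.44. The ratio of Tjp1 to Ocln per kb was higher without overlap as well, from a median of 2.25 (1.76 to 2.81) in WT Control to 5.66 (4.94 to 6.19) in WT UV mice, and from 2.43 (1.66 to 2.66) to 4.96 (4.06 to 7.19) in KO mice. These ratios were chosen after the values were seen and were not tested.

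**Figure D1:**
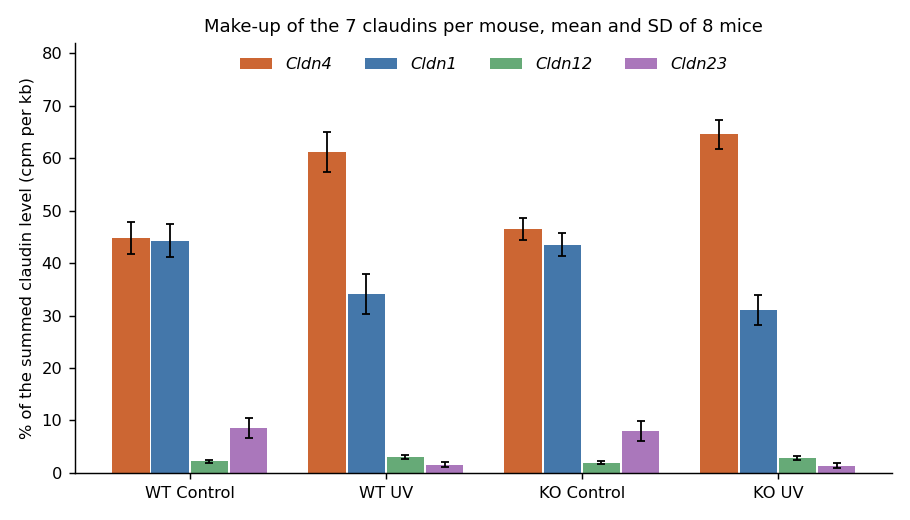
Share of each claudin in the summed claudin level (% of cpm per kb of exon over the 7 claudins) by genotype and treatment. Bars are means and error bars SDs of 8 mice. Cldn3, Cldn7 and Cldn8, each under 0.2% in every mouse, are not drawn. Cldn4 and Cldn1 were level in Control mice, and Cldn4 led after UV in both genotypes.

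The first comparison asked how the genes responded to UV in WT mice. All 6 tested genes passed the test, 3 higher and 3 lower, where 34.5% of all tested genes were higher and 36.5% lower. The median log2 fold change of the 6 was 0.16, against -0.01 over all tested genes. The groups of 8 mice did not overlap for 5 of the 6, where 43.4% of all tested genes were separated in this way.

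Among the strand proteins that fell, Cldn23, a claudin of differentiated keratinocytes, had the largest change. In WT Control mice it was at 31.7 cpm in the lowest, 36.9 in the median and 57.6 in the highest of 8 mice, and in WT UV mice at 4.93, 8.39 and 11.1 cpm. Every UV mouse was under every Control mouse. The log2 fold change was -2.25 ± 0.21 (SE, adjusted p = 2.31e-10, edgeR). Ocln, which encodes occludin, went from 32.2, 43.3 and 62.7 cpm (lowest, median and highest) to 22.4, 25.9 and 29.3 cpm. It also fell without overlap, by a log2 fold change of -0.83 ± 0.12 (SE, adjusted p = 5.4e-07, edgeR).

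Cldn1 changed least. It was at 442, 539 and 676 cpm (lowest, median and highest) in WT Control and 413, 466 and 556 cpm in WT UV mice, and the groups overlapped, with 3 of 8 UV mice under all Control mice. The log2 fold change was -0.20 ± 0.09 (SE, adjusted p = 0.0475, edgeR). This call was lost with RLE normalization, DESeq2, limma-trend, no filter or WT mice alone (adjusted p from 0.0523 to 0.0895) and when any of 24 of the 32 mice was left out. Without the 9 mice rich in muscle genes the log2 fold change was -0.08 (adjusted p = 0.548, edgeR).

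Cldn4, Cldn12 and Tjp1 rose. Cldn4, a claudin that narrows the pathway for ions, was at 169, 208 and 236 cpm in WT Control and 275, 310.0 and 381.5 cpm in WT UV mice, with a log2 fold change of 0.64 ± 0.08 (SE, adjusted p = 8.3e-08, edgeR). Cldn12, which lacks the usual binding motif for ZO scaffolds, was at 20.6, 23.9 and 25.6 against 32.8, 35.5 and 41.4 cpm, with a log2 fold change of 0.65 ± 0.06 (SE, adjusted p = 4.34e-10, edgeR). Tjp1 was at 138, 183 and 227 against 239.6, 261 and 299.7 cpm, with a log2 fold change of 0.51 ± 0.11 (SE, adjusted p = 0.000108, edgeR). For these 3 genes all 8 UV mice were above all 8 Control mice.

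**Figure D2:**
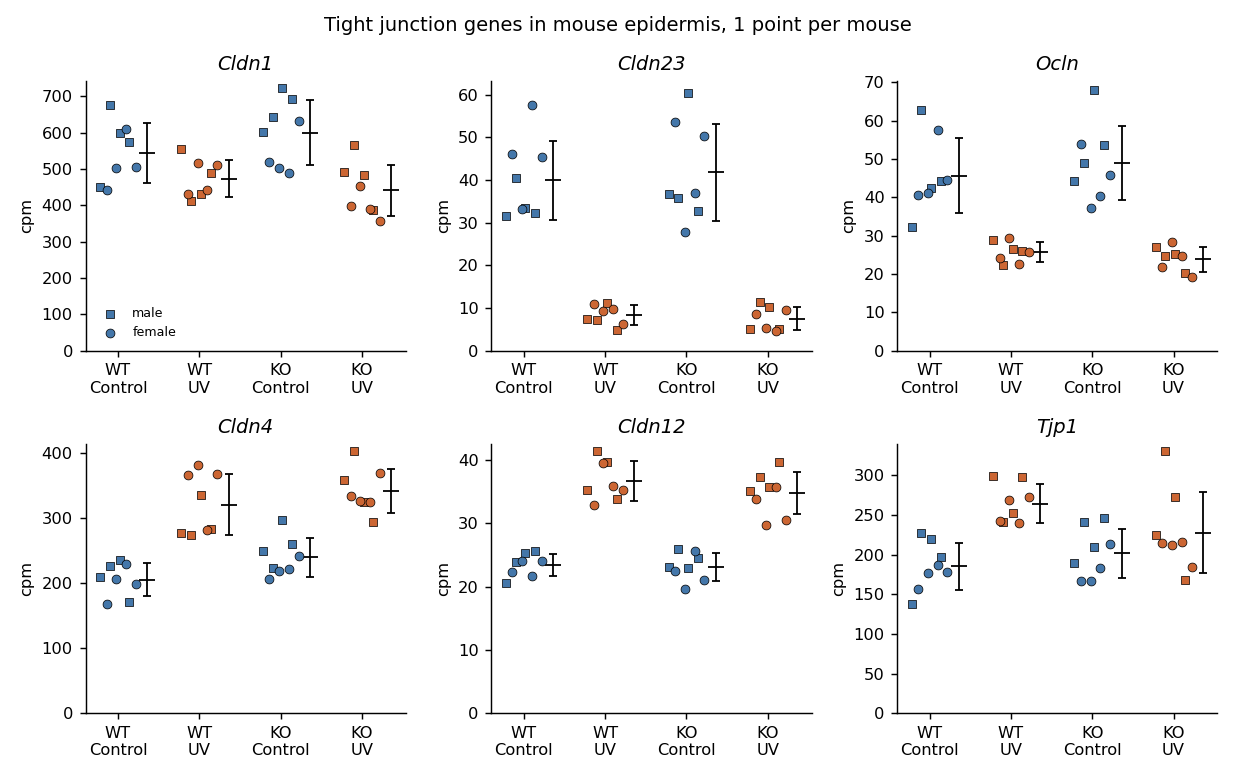
Level (cpm, linear axes from 0) of the 6 tested genes, with 1 point per mouse, squares for males and circles for females, blue for Control and orange for UV. The bar beside each group is the mean and SD of 8 mice. Cldn23 and Ocln of UV mice lie under all Control mice in both genotypes, Cldn12 lies above them, and Tjp1 is separated in WT but not in KO mice.

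Summed levels of markers of the keratinocyte layers differed between Control and UV mice as well. The summed level of 6 suprabasal markers was 65450 to 77280 cpm in WT Control and 16240 to 30330 cpm in WT UV mice, and 61130 to 106800 against 10750 to 35920 cpm in KO mice. The 7 granular layer markers, from the layer that holds tight junctions, were at 15060 to 20940 against 4281 to 7838 cpm in WT and 16460 to 26950 against 2941 to 8282 cpm in KO mice. The 7 basal markers were at 7505 to 16670 against 17360 to 29950 cpm in WT and 5622 to 12230 against 16960 to 29500 cpm in KO mice. Single markers did not all follow their sum. In WT mice 1 suprabasal marker was higher and 4 lower, 1 granular marker higher and 6 lower, and 3 basal markers higher and 2 lower. Of all tested genes, 34.5% were higher and 36.5% lower. The largest parts of the suprabasal sum were Krt10 and Krt1 (medians of 33120 and 27750 cpm in WT Control, 7493 and 4983 cpm in WT UV mice). Sbsn, another of these markers, had medians of 4716 and 4798 cpm. The basal sum followed Krt14, a keratin of basal cells (medians of 5592 cpm in WT Control and 16780 cpm in WT UV mice), while Krt15, another basal keratin, fell from a median of 249 to 4.26 cpm. None of the ranges of the sums overlapped between Control and UV mice, all of these markers were detected, and their part in the changes of the tight junction genes was not tested.

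In KO mice the UV response was examined in the same way. Of the 6 tested genes, 2 were higher and 3 lower, where 37.3% of all tested genes were higher and 33.5% lower, and the median log2 fold change was -0.13 against 0.09 over all tested genes. The groups did not overlap for Cldn12, Cldn23 and Ocln, where 35.1% of all tested genes were separated.

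Cldn23 went from 27.9, 36.9 and 60.4 cpm (lowest, median and highest of 8) in KO Control to 4.72, 6.92 and 11.5 cpm in KO UV mice, a log2 fold change of -2.48 ± 0.21 (SE, adjusted p = 4.4e-11, edgeR). Ocln went from 37.3, 47.3 and 67.9 to 19.2, 24.8 and 28.4 cpm, a log2 fold change of -1.03 ± 0.12 (SE, adjusted p = 1.42e-08, edgeR). Cldn1 went from 488, 617 and 724 to 358, 425 and 567 cpm, with 6 of 8 UV mice under all Control mice and a log2 fold change of -0.44 ± 0.09 (SE, adjusted p = 8.16e-05, edgeR). This fall passed in each alternative run, with log2 fold changes from -0.49 to -0.40 when 1 mouse was left out.

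Cldn4 was at 206, 233 and 298 cpm in KO Control and 295, 330.5 and 403 cpm in KO UV mice, with 7 of 8 UV mice above all Control mice and a log2 fold change of 0.52 ± 0.08 (SE, adjusted p = 2.56e-06, edgeR). Cldn12 rose from 19.6, 23.0 and 26.0 to 29.8, 35.4 and 39.7 cpm, by a log2 fold change of 0.58 ± 0.06 (SE, adjusted p = 3.33e-09, edgeR). Tjp1 was at 167, 199 and 246 cpm in KO Control and 168, 215 and 330.3 cpm in KO UV mice, and 2 of 8 UV mice were above all Control mice. Its log2 fold change was 0.18 ± 0.11 (SE, adjusted p = 0.144, edgeR). The test passed when KO UV male 72M, the lowest mouse, was left out (log2 fold change 0.25, adjusted p = 0.0219, edgeR). Without KO UV male 59M, the highest mouse, the log2 fold change was 0.086. The gene was not called in 31 of the 32 runs that left out 1 mouse.

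Whether the UV response differed between genotypes was tested as the genotype-by-UV interaction, for which 0.765% of all tested genes passed. None of the 6 genes passed with edgeR, in any alternative or without any mouse. The KO minus WT difference was -0.34 ± 0.15 for Tjp1 (SE, adjusted p = 0.213, edgeR), -0.24 ± 0.13 for Cldn1 (adjusted p = 0.292, edgeR) and between -0.23 and -0.06 for the other 4. Tjp1 is the gene called in WT and not in KO, a difference that the interaction did not show.

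Genotype alone was compared in Control mice, where 0.206% of all tested genes passed, and in UV mice, where 3.31% passed. None of the 6 genes passed in either, and at an unadjusted p under 0.05 there was 1 of the 6 in each, where 8.52% of all tested genes passed that threshold in Control mice and 20.1% in UV mice. Cldn4 had 240.1 ± 29.5 cpm in KO Control and 206 ± 25.4 cpm in WT Control mice (SD, n = 8), a log2 fold change of 0.22 ± 0.08 (SE, adjusted p = 0.425, edgeR), with 4 of 8 KO mice above all WT mice. Tjp1 had 228 ± 51.5 cpm in KO UV and 264 ± 24.3 cpm in WT UV mice, a log2 fold change of -0.22 ± 0.11 (SE, adjusted p = 0.246, edgeR). The other log2 fold changes lay between -0.02 and 0.13 in Control mice and between -0.15 and 0.10 in UV mice.

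The sexes were compared next, as this was the question of the study. In WT males, WT females, KO males and KO females each, 5 of the 6 genes passed the test for UV, where 60.9%, 61.3%, 61.7% and 60.7% of all tested genes passed. Cldn23, Ocln, Cldn4 and Cldn12 passed in all 4, Tjp1 in WT males and females, and Cldn1 in KO males and females. The log2 fold change of Cldn23 ranged from -2.59 to -2.16 over the 4 contrasts, that of Ocln from -1.14 to -0.81 and that of Cldn12 from 0.55 to 0.65.

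The sex-by-UV interaction was tested as the mean over the genotypes, not in WT mice alone. It passed for none of the 6 genes and for 0% of all tested genes with edgeR (0 genes, with 1091 at an unadjusted p under 0.05, 22 genes by DESeq2 and 2 by limma-trend). The largest difference among the 6 was that of Cldn4. Its log2 fold change was 0.80 ± 0.12 in WT females against 0.47 ± 0.12 in WT males, and 0.61 ± 0.12 in KO females against 0.42 ± 0.12 in KO males (SE). In cpm, Cldn4 was at 349.9 ± 45.1 in WT UV females and 293 ± 29.0 in WT UV males (SD, n = 4), from 200.9 ± 25.1 and 211 ± 28.4 in Control mice. Averaged over the genotypes, the female minus male difference was 0.26 ± 0.12 on the log2 scale (SE, adjusted p = 0.696, edgeR), and those of the other 5 genes lay between -0.20 and 0.10.

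**Figure D3:**
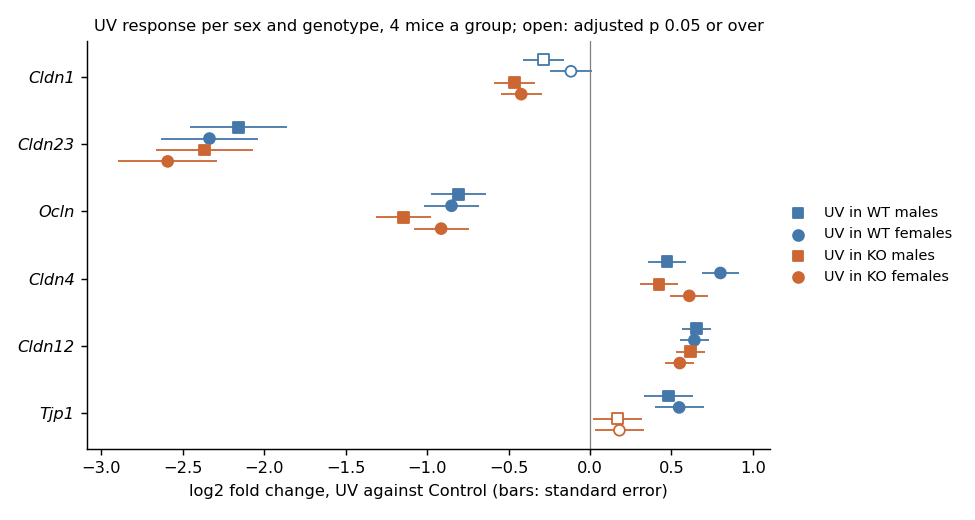
Log2 fold change of UV against Control for the 6 tested genes in WT males, WT females, KO males and KO females (4 mice a group). Bars are standard errors, and open symbols have an adjusted p of 0.05 or over. Cldn23, Ocln, Cldn4 and Cldn12 were called in all 4 contrasts, Cldn1 in KO and Tjp1 in WT mice.

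Cldn3, Cldn7 and Cldn8, claudins of simple epithelia and kidney tubules, were close to the limit of detection. Cldn3 had 2 to 16 reads in WT Control mice (median 4.5), 4 to 17 in WT UV mice (median 10.5), 1 to 11 in KO Control mice (median 3.5) and 6 to 19 in KO UV mice (median 12.5). Cldn7 had 0 to 8 reads in WT Control (median 1.0), 0 to 13 in WT UV (median 6.5), 0 to 2 in KO Control (median 0) and 2 to 13 in KO UV mice (median 8.0), and 9 of the 32 mice had none. Cldn8 had 1 to 17, 0 to 10, 1 to 22 and 0 to 15 reads in the same order. For Cldn3 and Cldn7 all 8 KO UV mice were above the median of KO Control mice and 6 of 8 were above all of them, while the groups of Cldn8 overlapped throughout. With so few reads no fold change is given. They were left out by the filter on low counts. When they were kept, with no filter, Cldn3 (adjusted p = 0.00303) and Cldn7 (adjusted p = 0.000194) passed edgeR's test in KO mice but not in WT mice (adjusted p = 0.116 and 0.0564). With edgeR's filterByExpr, Cldn7 passed in WT mice too (adjusted p = 0.0288, edgeR). That filter keeps a gene with enough reads in some of the mice. For Cldn7 the highest counts lay in UV mice, so this call is not independent support. The genotype-by-UV interaction of Cldn3 and Cldn7 did not pass under either filter.

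The genes also varied between mice of a group. Of the 36 pairs, 2 passed when deviations of log2 cpm from the 8 group means were correlated over 32 mice (permutation within groups, adjusted over 36 pairs). Cldn1 varied with Tjp1 (Pearson r = 0.83, permutation p = 1e-05, adjusted p = 0.00036; Spearman rho = 0.82, permutation p = 1e-05, adjusted p = 0.00018). Cldn1 also varied with Ocln (Pearson r = 0.79, permutation p = 2e-05, adjusted p = 0.00036; Spearman rho = 0.81, permutation p = 1e-05, adjusted p = 0.00018). A p of 1e-05 is the smallest that the 100000 shuffles can give. Without the 2 mice farthest from the median of Cldn1, r was 0.73 and 0.72. It was 0.90 and 0.88 in the 16 WT mice, 0.79 and 0.68 in the 16 KO mice, and 0.87 and 0.80 without the 9 mice rich in muscle genes. Over 14915 genes, the highest r was 0.91 for Cldn1 (with Scel) and 0.92 for Tjp1 (with Ep300). How many of all gene pairs would pass was not examined, so these 2 pairs are not shown to be particular to tight junction genes.

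So Cldn1, lower after UV, and Tjp1, higher after UV in WT, were high or low in the same mice of a group. Ocln and Tjp1 had r = 0.54 (permutation p = 0.00771, adjusted p = 0.0925; Spearman rho = 0.57, permutation p = 0.00296, adjusted p = 0.0355) and did not pass by Pearson's r. Cldn12 had r = -0.10 with Cldn1 (permutation p = 0.623, adjusted p = 0.844; Spearman rho = -0.15, permutation p = 0.461, adjusted p = 0.721). The labels name no batch, so none could be set against these relations.

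**Figure D4:**
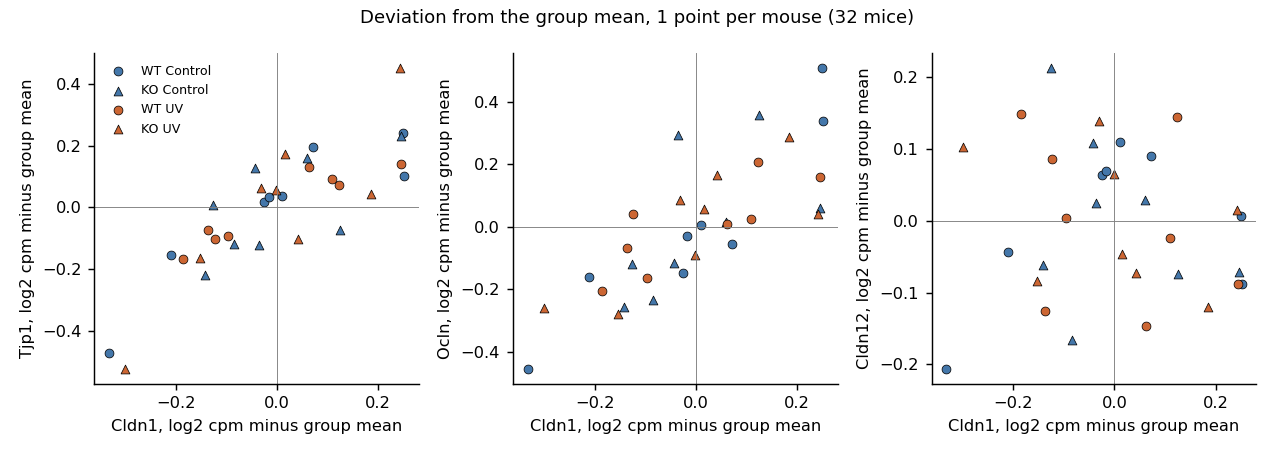
Deviation of each of 32 mice from the mean log2 cpm of its group of 4, Cldn1 on the x axis and Tjp1, Ocln or Cldn12 on the y axis. Circles are WT, triangles KO, blue Control and orange UV. Tjp1 (r = 0.83) and Ocln (r = 0.79) follow Cldn1, and Cldn12 (r = -0.10) does not.

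Other tight junction genes, from lists by role, were examined beside these. Of 70 genes, 68 matched the files and 52 were tested. In WT mice 23 were higher and 18 lower after UV, and in KO mice 21 and 18, where 34.5% of all tested genes were higher and 36.5% lower in WT and 37.3% and 33.5% in KO mice. The median log2 fold changes were -0.03 and 0.12. Magi3, Elf3, Pard6b, Magi1, Tjp3 and Cgn were named by the size of their change, Prkci and Zeb1 by their calls for genotype, and the others below were chosen after their values were seen. Among the 17 other claudins matched, Cldnd1 and Cldn5 were tested, and Cldnd1, a claudin domain protein, rose by 0.48 ± 0.06 in WT (SE, adjusted p = 1e-07, edgeR). Of the 5 MARVEL and tricellular proteins, Marveld2, or tricellulin, fell by 1.67 on the log2 scale in WT mice and Lsr, or angulin-1, fell by 0.54, while Marveld3 was higher by 0.78. Both tricellular proteins fell in KO mice too, with log2 fold changes of -1.73 and -0.75. Of the 4 adhesion molecules tested, F11r, which encodes JAM-A, was higher by 1.29 and Cxadr lower with a log2 fold change of -0.85 in WT mice.

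Of the 16 cytoplasmic plaque genes tested, 6 were higher and 7 lower in each genotype. Tjp3, which encodes the scaffold ZO-3, fell, with log2 fold changes of -2.71 in WT and -2.96 in KO mice. Tjp3 was at 103 to 151 cpm in WT Control and 13.8 to 23.5 cpm in WT UV mice. Cgn, which encodes cingulin, went from 107 to 216 cpm in WT Control to 28.9 to 50.7 cpm in WT UV mice, a log2 fold change of -1.90 ± 0.17 (SE, adjusted p = 1.3e-10, edgeR). The scaffolds of the MAGI family moved in opposite directions. Magi1 had 25.0 to 42.4 cpm in WT Control and 0.654 to 4.51 cpm in WT UV mice (log2 fold change -4.05 ± 0.28, SE), and Magi3 had 0.511 to 1.39 and 7.20 to 19.4 cpm (3.92 ± 0.28). In KO mice their log2 fold changes were -3.42 and 3.22.

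Among the 9 polarity genes tested, 5 were higher and 2 lower in WT mice, and 3 and 4 in KO mice. Pard6b, a subunit of the PAR complex, was at 15.0 to 23.5 cpm in WT Control and 56.2 to 85.8 cpm in WT UV mice, while Pard3, its scaffold, had a log2 fold change of -1.89. Of the 6 claudin partners and proteases, 2 were higher and 4 lower in WT mice. Epcam, which binds claudins, had a log2 fold change of -0.58 in WT mice, and the protease St14 (matriptase) and its inhibitor Spint1 were higher by 0.85 and 1.04. Among the 10 transcription factors tested, 7 were higher and 2 lower in WT mice. Elf3, an epithelial ETS factor, was at 3.12 to 11.3 cpm in WT Control and 24.7 to 41.8 cpm in WT UV mice, a log2 fold change of 2.45 ± 0.21 (SE, adjusted p = 6.3e-11, edgeR). Grhl3 was higher by 0.87 in WT and 0.40 in KO mice.

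For genotype, 1 of the 52 genes passed in Control mice, Magi3 (log2 fold change 1.23 ± 0.27, SE, adjusted p = 0.0485, edgeR), and 2 in UV mice with edgeR, Prkci (-0.29 ± 0.06, adjusted p = 0.00888) and Zeb1 (1.06 ± 0.30, adjusted p = 0.0447). Of all tested genes, 0.206% passed in Control mice and 3.31% in UV mice, so the count in UV mice is near the share of all genes. Zeb1 was at 14.7 cpm in KO UV female 54F, the mouse rich in fibroblast genes. Without this mouse its log2 fold change was 0.61 (adjusted p = 0.157, edgeR). The Magi3 call was lost without the 9 mice rich in muscle genes (log2 fold change 1.30, adjusted p = 0.188, edgeR). So was that of Prkci (log2 fold change -0.35, adjusted p = 0.111, edgeR). Neither log2 fold change was nearer 0 than with all mice. When 1 mouse was left out, the call of Magi3 was lost for 19 of the 32 mice and that of Zeb1 for 22, and that of Prkci for none. None of the 52 passed the interaction of genotype or of sex with UV, where 0.765% and 0% of all tested genes passed.

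**Figure D5:**
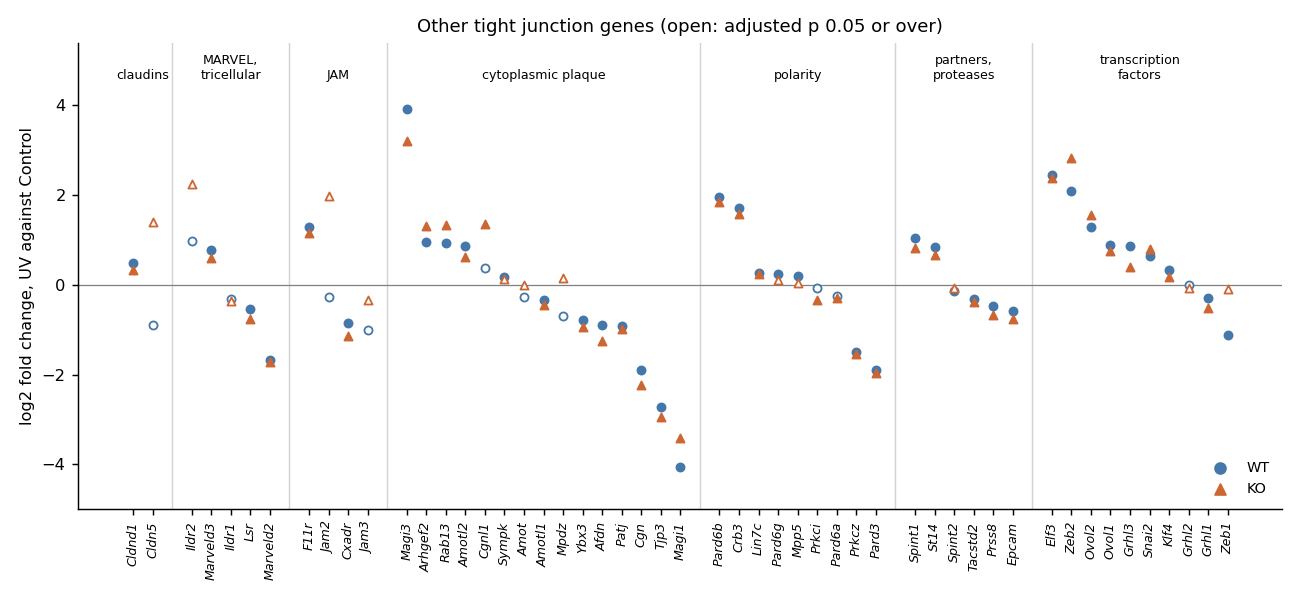
Log2 fold change of UV against Control for other tight junction genes tested, by list, in WT (blue circles) and KO mice (orange triangles). Open symbols have an adjusted p of 0.05 or over. Magi3 and Magi1 lie at the ends (3.92 and -4.05 in WT), and Tjp3 lies below 0 in both genotypes.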

How the data were processed

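Epidermis of 32 mice was sequenced with a stranded mRNA protocol. The authors trimmed reads with cutadapt 1.8, aligned them with STAR 2.5.3a to GRCm38 (as the submitters' processing notes name it) and deposited raw counts per gene from HTSeq 0.9.1. The strand setting of the counting is not given in the sources used here. The HTSeq summary rows that name no gene (no feature, 6.80% to 9.75% of reads) were left out. Reads on genes were 22919428 to 40653581 per mouse. The 48 pairs of mice within groups differed by more than counting error (chi-square per degree of freedom 19.5 to 134), so that none was counted as a repeat.

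A gene was tested if any 1 mouse reached 1 cpm, which is the study's own filter, and counts were scaled by TMM. A quasi-likelihood model with 8 group means was fitted over all mice in edgeR 4.0.16 (R 4.3.3), with Benjamini-Hochberg adjustment over all 15546 genes and a threshold of 0.05. Contrasts of UV and genotype average the sexes, and the sex-by-UV interaction averages the genotypes. The script was tested on simulated data. The alternatives were RLE scaling, DESeq2 1.42.0, limma-trend (limma 3.58.1), other filters, mice of 1 genotype and leaving out each mouse. Correlations used deviations of log2 cpm (prior count 1) from group means, and 100000 shuffles of mice within groups. Positions are from GENCODE M21, which held 55141 of the 55401 identifiers.

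The genes, lists, markers and motifs were chosen with earlier results of these data known. Of the other lists, the genes with the 3 largest rises and 3 largest falls in WT mice were named, among those called with at least 10 reads on average and no overlap of Control and UV mice, and those called for genotype or an interaction. The values of 1 gene of the lists are not reported here, and it is not drawn, though the counts of its list include it.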

Additional observations from a re-analysis of the deposited data

Results flagged for a closer look

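In 4 of 48 sets of 4 mice (6 genes by 8 groups), 1 mouse lay apart from the other 3, where 2.4 sets are expected by chance at 1 in 20. Cldn4 was at 283 cpm in WT UV female 59F, below 367, 368 and 381 cpm in the others. This mouse is 1 of the 9 rich in muscle genes. Cldn4 was at 336 cpm in WT UV male 57M, above 275, 277 and 284 cpm. These mice lie on the sides that bring the sexes closer, and without 59F the log2 fold change of Cldn4 in WT females was 0.94. The sex-by-UV interaction passed for none of the 6 genes in any run that left out 1 mouse, 59F included. Cldn23 was at 60.4 cpm in KO Control male 52M, above 32.8, 35.9 and 36.8 cpm. Tjp1 was at 184 cpm in KO UV female 74F, below 213, 215 and 216 cpm. Leaving out any 1 of these 4 mice left the calls of the gene for UV as they were.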

How the results depend on the processing

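For UV, 5 to 7 of the 9 genes were called in each genotype under every alternative, and for genotype and the interactions none. Of 546 values of single genes under alternatives other than leaving out 1 mouse, 525 kept their direction and side of the threshold. Without any 1 of 24 mice Cldn1 in WT was not called (log2 fold change -0.25 to -0.14 over all 32), and the cause was not tested. In WT males it was called without 32M, 43M, 69F, 71F or 72M (-0.38 to -0.20 over all 32). Directions turned for differences near 0. Without the 9 mice rich in muscle genes, chosen after seeing the data as were all alternatives for the other named genes, Cldn12 for genotype in Control was 2e-04, Tjp1 for sex-by-UV -0.10, Cldn1 for UV in WT females 0.0405 and Tjp1 for UV in KO females -0.0131. Tjp1 for sex-by-UV was -0.0281 with filterByExpr and -0.0233 with no filter. Leaving out 1 mouse gave -0.0504 to 0.0156 for Cldn12 and -0.038 to 0.16 for Cldn23 (genotype in Control), -0.0382 to 0.16 for Ocln and -0.0549 to 0.11 for Tjp1 (sex-by-UV), and -0.52 to 0.0334 for Zeb1 (UV in KO).

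Counts over all genes moved more. For genotype in Control, 32 genes became 78 (DESeq2) or 18 (without the 9 mice), and 20 to 45 when 1 mouse was left out. For genotype in UV, 514 became 1116 (DESeq2), 260 (limma-trend), 263 (no filter) or 26 (without the 9 mice), and 133 (without 51F) to 983 (without 59M). For genotype-by-UV, 119 became 841 (DESeq2), 55 (no filter) or 30 (without the 9 mice), and 56 (without 69M) to 346 (without 59M). For sex-by-UV, 0 became 22 (DESeq2) or 2 (limma-trend), and 0 to 1 (without 62F). The cause was not tested, beyond the fewer mice or added genes of those settings.

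The interaction with genotype cannot be fitted on mice of 1 genotype. No paired analysis was possible because the groups compared share fewer than 2 mouse numbers: 8 numbers recur, each in 1 male and 1 female, none within a sex, and the groups of genotype and treatment compared share 1 each. Fewer than 20 reads on Cldn3 and Cldn7 in any mouse limit what can be said of them.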

Other observations

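Beyond tight junction genes, other genes varied between mice of a group in the same way. Over 14915 genes and 32 mice, the deviation of Cldn1 from its group mean was most like that of Scel, the cornified envelope protein sciellin (r = 0.91), Inpp5b (r = 0.88) and Clcn5 (r = 0.87). Tjp1 was most like Ep300 (r = 0.92), Gfod1 (r = 0.92) and Dsp, which encodes desmoplakin of desmosomes (r = 0.92). Ocln was most like Trim2 (r = 0.89), Abca5 (r = 0.89) and Pacsin2 (r = 0.87). Cldn23 was most like another tight junction gene, Tjp3 (r = 0.82), then Ankrd35 (r = 0.81) and Capn15 (r = 0.77). Cldn4 was most like Nectin4, an adhesion molecule of adherens junctions (r = 0.80), Atp6v1c2 (r = 0.77) and Cc2d1a (r = 0.77), and Cldn12 was most like Atp5l (r = 0.78), Tyw5 (r = 0.76) and Rap2a (r = 0.75). These are descriptions without a test, and both values of a mouse come from the same library.

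Markers of other cell types of the epidermis were examined in the same mice. Of all tested genes, 34.5% were higher and 36.5% lower after UV in WT mice, and 37.3% and 33.5% in KO mice. The summed level of 6 Langerhans cell markers was 403 to 892 cpm in WT Control and 203 to 318 cpm in WT UV mice, and all 6 fell. In KO mice the sum overlapped, at 253 to 813 against 198 to 758 cpm, and 4 of the 6 fell. The 6 markers of dendritic epidermal T cells summed to 108 to 209 against 18.1 to 52.6 cpm in WT and 98.7 to 175 against 29.5 to 76.5 cpm in KO mice, and all 6 fell in both. The 7 hair follicle markers, which include Krt17, a keratin also made by stressed epidermis, were at 514 to 1672 against 8089 to 12950 cpm in WT mice. This sum was nearly all Krt17 (medians of 1086 and 9553 cpm), and of the 6 markers tested 3 were higher and 3 were not called. The sums of the 7 sebaceous gland markers overlapped, at 1280 to 1884 against 559 to 1799 cpm in WT mice. Single markers moved in both directions: 3 were higher, 1 was lower and 3 were not called.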
